A study of Mus musculus with 21 samples.

Results

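The data for 10 genes were read across the series: Bcl2, Bcl2l1, Mcl1, Bax, Bak1, Bcl2l11, Bid, Bad, Bbc3 and Pmaip1, which encode the survival and death proteins of the BCL2 family. They were taken by symbol, and all 10 were among the 14265 genes of the table. The list of symbols was chosen with earlier results of these data known. The series holds 21 RNA-seq libraries, 3 in each of 7 groups, made from spleen cells that were sorted from C57BL/6 mice. The CD45+ and the CD45- fraction of the Ter119+CD71+ gate were each taken from 3 kinds of mice (tumor-bearing, anemic and neonatal), and MDSC, myeloid-derived suppressor cells sorted as CD11b+Gr1+, came from tumor-bearing mice. Ter119 marks erythroid cells, CD71 is the transferrin receptor of erythroid precursors, and CD45 is a leukocyte phosphatase that erythroid cells lose as they mature. The labels do not give the tumor line, how the anemia arose, the age of the neonates or whether libraries of a group came from separate animals. Spread between libraries may thus be technical, and it is all that the p-values measure.

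The family decides whether the mitochondrial outer membrane is breached and the cell dies. Anti-apoptotic members (BCL2, BCL-xL from Bcl2l1, and MCL1) hold the pore-forming effectors BAX and BAK in check. The BH3-only members (BIM from Bcl2l11, BID, BAD, PUMA from Bbc3 and NOXA from Pmaip1) sense damage or loss of growth factor and either occupy the anti-apoptotic members or activate the effectors. In red cell formation BCL-xL is known as the survival protein that erythropoietin signalling through STAT5 raises as precursors begin to make haemoglobin, while MCL1 is needed by early progenitors and is the main survival protein of neutrophils.

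The promoters of 3 members are shown first: Bcl2l1 and Mcl1, survival genes that differed between the fractions in opposite directions, and Bbc3, a death gene that was called between statuses of the mouse. Each sequence is the 250 bases before the annotated start in RefSeq (GRCm38.p6), written 5′ to 3′ on the gene's strand, and capitals mark matches to CCNCNCCC, the core of the sites that KLF factors such as the erythroid KLF1 bind. The windows lie at chr2:152831729-152831978 (minus strand) for Bcl2l1, chr3:95658471-95658720 (plus strand) for Mcl1 and chr7:16309333-16309582 (plus strand) for Bbc3.
Bcl2l1: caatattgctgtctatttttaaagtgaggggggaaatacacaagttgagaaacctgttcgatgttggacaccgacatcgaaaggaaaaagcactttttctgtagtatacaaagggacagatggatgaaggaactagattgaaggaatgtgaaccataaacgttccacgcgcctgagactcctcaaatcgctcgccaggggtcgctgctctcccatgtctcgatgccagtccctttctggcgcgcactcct
Mcl1: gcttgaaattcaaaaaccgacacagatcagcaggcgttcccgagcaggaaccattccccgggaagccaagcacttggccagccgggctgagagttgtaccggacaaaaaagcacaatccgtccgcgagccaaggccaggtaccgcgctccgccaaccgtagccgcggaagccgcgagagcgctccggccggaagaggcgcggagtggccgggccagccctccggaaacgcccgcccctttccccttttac
Bbc3: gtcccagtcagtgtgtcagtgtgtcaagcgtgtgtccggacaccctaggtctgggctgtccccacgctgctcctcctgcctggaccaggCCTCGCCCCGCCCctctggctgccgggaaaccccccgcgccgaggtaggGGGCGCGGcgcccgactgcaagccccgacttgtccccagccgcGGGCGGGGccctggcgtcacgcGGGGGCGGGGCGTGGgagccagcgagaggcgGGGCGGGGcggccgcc
The Bbc3 window held 8 matches to CCNCNCCC, counted on both strands with overlaps, and the Bcl2l1 and Mcl1 windows held 0. None of the 3 windows held GATAA, the core of a GATA factor site, or TTCNNNGAA, the site form that STAT factors bind. The motif CCNCNCCC occurred in 45.9% of all 32851 promoter windows of this length, GATAA in 22.6% and TTCNNNGAA in 7.02%. Bcl2l1 has 3 annotated starts. Its other 2 windows held 1 match to GATAA and 2 to CCNCNCCC. Bbc3 has 3 annotated starts as well, and its other 2 windows, which overlap each other, held 4 and 9 matches to CCNCNCCC. A match is a run of letters and not a measured site. Of the 10 members 9 had an entry in the promoter table, and Pmaip1 is named only.

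The levels given are 2 to the power of each deposited log2 value, and what they are relative to is not given in the sources used here. Library sums ran from 227942 to 349254, so a level is a share of a library and not a number of molecules. The scale may or may not correct for gene length, so levels are compared between groups and not between genes. Ptprc, which encodes CD45, lay at 231 ± 136, 390 ± 78.9 and 125 ± 54.6 (SD, n = 3) in CD45+ cells of tumor, anemia and neonatal mice, and at 1.85 ± 0.964, 3.76 ± 1.57 and 2.27 ± 0.822 (SD, n = 3) in the CD45- cells. The summed level of 11 erythroid marker genes was 4028 to 7689 in the 9 CD45- libraries, 219 to 1728 in the 9 CD45+ libraries and 52.7 to 118 in MDSC. The summed level of 12 neutrophil genes reached 44951 to 69885 in MDSC. Among CD45+ libraries it was 11311 to 29598 with tumor, 495 to 2790 with anemia and 9463 to 11897 in neonates, and the CD45- libraries had 9.11 to 373. The CD45+ libraries therefore held RNA of neutrophil genes in large amount beside the erythroid genes, and in sorted bulk samples fewer cells of a type and less RNA per cell cannot be told apart. Libraries numbered 3 held the lowest Bbc3 level in 6 of 7 groups and the highest Pmaip1 level in 6 of 7. Library 3 of anemia CD45+ cells stood apart, with an erythroid sum of 219 against 1728 and 1294 in the other two.

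The survival genes Bcl2l1 and Mcl1 differed between the fractions in opposite directions in all 3 statuses. Bcl2l1 was lower in CD45+ than in CD45- cells by 2.37 to 2.61 on the log2 scale, and Mcl1 was higher by 1.78 to 2.23. The death genes Bcl2l11 and Pmaip1 were higher in CD45+ cells in every status, as were Bid and Bax. Bax exceeded the median difference of all genes by only 0.18, 0.18 and 0.25 in tumor-bearing mice, anemia and neonates. Its calls were lost under median-ratio scaling and quantile normalization, and that of Bid in anemia in 4 of 14 alternatives. Bbc3 went the other way in tumor-bearing and neonatal mice. Of the 9 members tested, limma called 7 higher and 2 lower in tumor-bearing mice, 5 higher and 1 lower in mice with anemia, and 7 higher and 2 lower in neonates, at an adjusted p under 0.05 over all 11192 genes tested. The higher counts include Pmaip1, which passed the filter on low values through CD45+ libraries alone. Its call therefore lends them no weight.

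These counts stand against a broad difference between the fractions. In tumor-bearing mice 61.1% of all tested genes were called, 50.2% higher and 10.9% lower in CD45+ cells. In mice with anemia it was 58.7%, with 47.4% higher and 11.3% lower, and in neonates 59.9%, with 49.6% higher and 10.3% lower. The median log2 difference of all tested genes was 0.75, 0.68 and 0.75 in the 3 statuses. That of the 9 members, Pmaip1 included, was 1.83, 0.86 and 1.14. Other ways of scaling the libraries moved the median of all genes, to 0.05, 0.03 and 0.05 under median-ratio scaling and to -0.08, -0.07 and -0.02 under quantile normalization. Differences are therefore also given relative to the median of all genes.

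**Figure D1:**
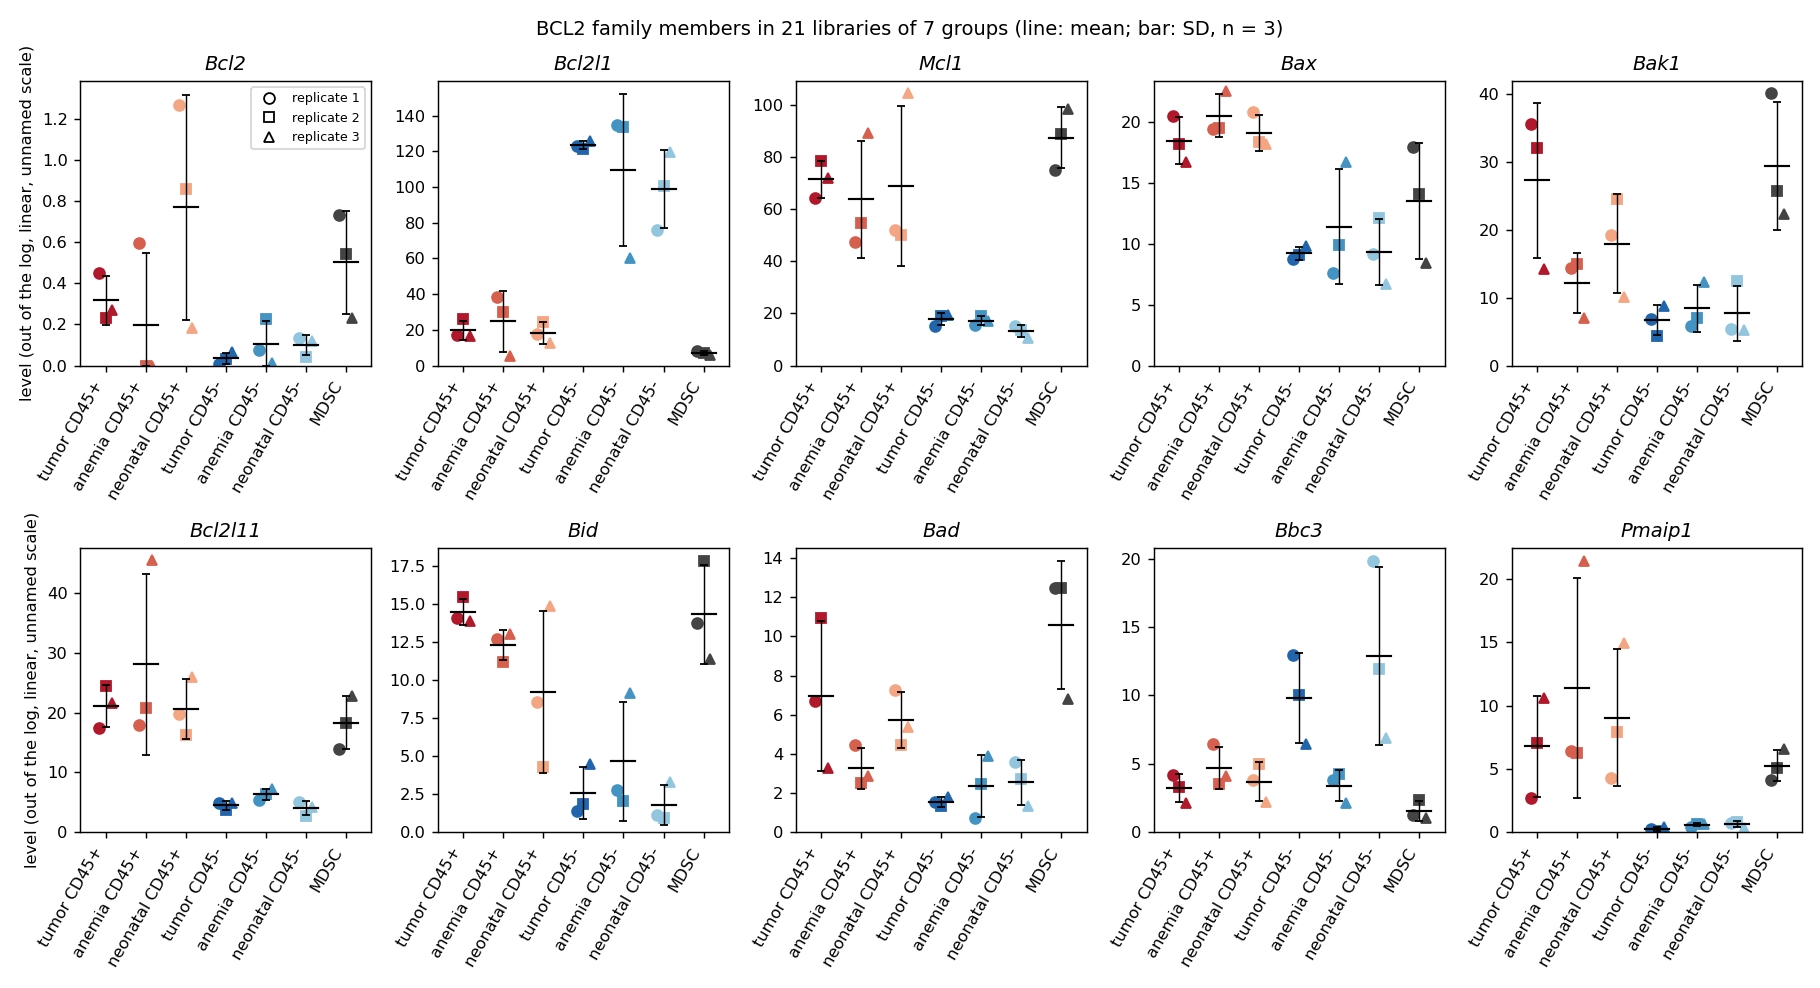
Level of each of the 10 members in each library (out of the log, linear vertical axis) by group (horizontal axis). Points are libraries, bars are the mean and SD of 3 libraries, and the lower bars of Bcl2 are cut at 0. Bcl2l1 is high in the 3 CD45- groups and lowest in MDSC, whereas Mcl1, Bcl2l11 and Pmaip1 are low in the 3 CD45- groups.

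Among the anti-apoptotic members, Bcl2l1 had levels of 123, 121 and 126 in the 3 tumor CD45- libraries, 135, 133 and 60.4 in anemia CD45- and 76.2, 100.5 and 119.7 in neonatal CD45- libraries. In CD45+ libraries it had 17.0, 25.9 and 16.4 in tumor-bearing mice, 38.6, 30.2 and 5.61 in mice with anemia and 17.4, 24.6 and 12.7 in neonates. MDSC had 8.31, 7.29 and 6.16. The 9 CD45- libraries all lay above the 9 CD45+ libraries, with 60.4 as the lowest of the first and 38.6 as the highest of the second. Only library 3 of anemia CD45+ cells reached down to the level of MDSC.

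The log2 difference of Bcl2l1 between CD45+ and CD45- cells was -2.61 ± 0.50 (SE) in tumor-bearing mice (limma adjusted p = 0.00026), -2.37 ± 0.50 in mice with anemia (adjusted p = 0.00065) and -2.40 ± 0.50 in neonates (adjusted p = 0.00058). Relative to the median of all genes it was -3.36, -3.05 and -3.15. In anemia the difference was -1.56 without library 3 of the CD45+ cells (adjusted p = 0.0018). In order of mean level the groups ran tumor CD45-, anemia CD45-, neonatal CD45-, anemia CD45+, tumor CD45+, neonatal CD45+ and MDSC. Neighbours in this order overlapped except at the step from CD45- to CD45+ cells and at the step to MDSC.

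Bcl2l1 moved with the erythroid markers between fractions and at some extremes, but not in every library. The lowest of its 9 levels in CD45- libraries, 60.4, came from the library with the lowest erythroid sum of that fraction, 4028. In CD45+ libraries its lowest level, 5.61, and its highest, 38.6, came from the libraries with erythroid sums of 219 and 1728, the lowest and the highest of that fraction. Within groups the order did not always hold. Neonatal CD45- libraries had 76.2 at an erythroid sum of 5057 and 100.5 at 4827. Tumor CD45+ libraries had 17.0 at 564 and 16.4 at 701, and tumor CD45- libraries had 126 at their lowest sum, 7002. The part of erythroid cell content in the Bcl2l1 difference was not tested.

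**Figure D2:**
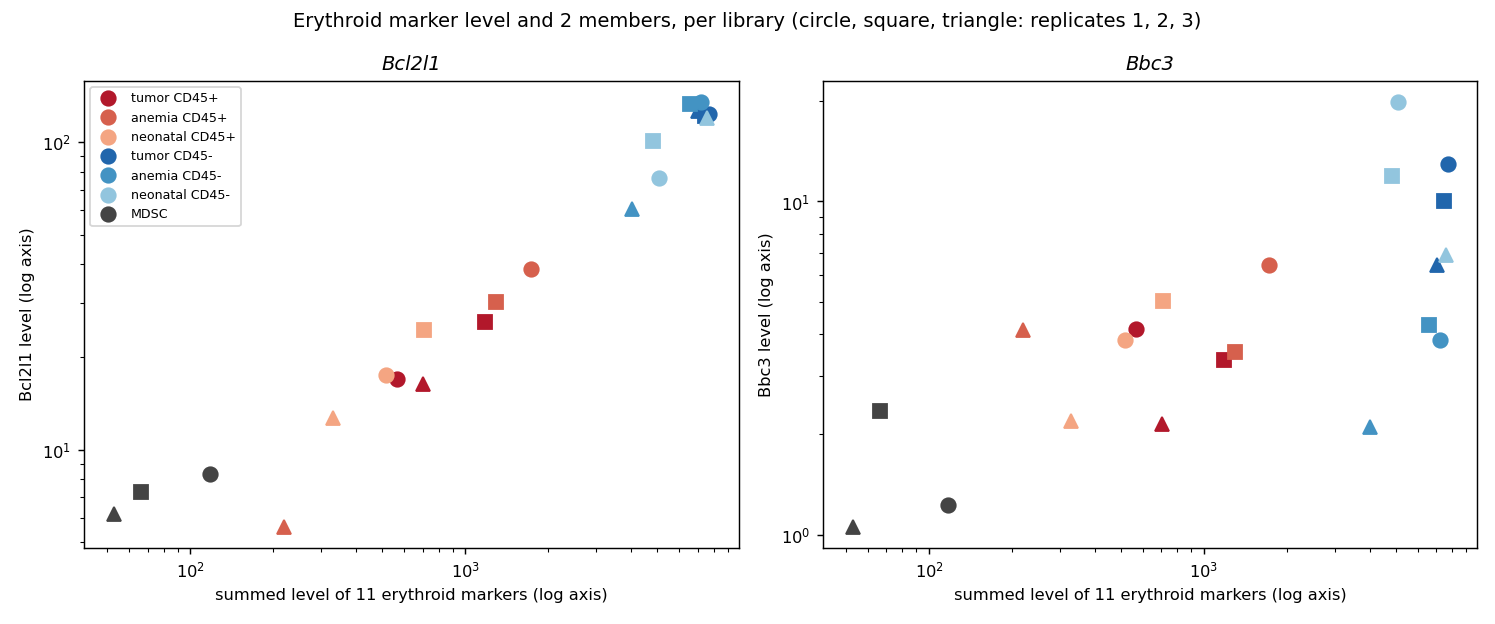
Level of Bcl2l1 and of Bbc3 (vertical axes, log scale) against the summed level of 11 erythroid marker genes (horizontal axis, log scale), with a point for each of the 21 libraries coloured by group. The CD45- libraries, with erythroid sums of 4028 to 7689, hold the highest Bcl2l1 levels, whereas the anemia CD45- libraries lie among the CD45+ libraries for Bbc3.

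Mcl1 showed the opposite distribution. It had 64.2, 78.4 and 71.9 in tumor CD45+ libraries, 47.3, 54.8 and 89.2 in anemia CD45+ and 52.1, 50.1 and 104 in neonatal CD45+ libraries. In CD45- libraries it had 15.2, 19.1 and 19.4 in tumor-bearing mice, 15.7, 19.0 and 16.9 in mice with anemia and 15.2, 13.6 and 10.7 in neonates. All 9 CD45+ libraries lay above all 9 CD45- libraries, and the MDSC levels of 75.0, 88.9 and 98.3 fell within the range of the CD45+ libraries.

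The log2 difference of Mcl1 was 1.94 ± 0.29 (SE) in tumor-bearing mice (limma adjusted p = 2.0e-05), 1.78 ± 0.29 in anemia (adjusted p = 5.2e-05) and 2.23 ± 0.29 in neonates (adjusted p = 5.3e-06), or 1.19, 1.10 and 1.48 relative to the median of all genes. Within the CD45- cells the neonatal libraries, at 10.7 to 15.2, lay below the anemia libraries, at 15.7 to 19.0, without overlap. That difference did not pass the test (0.37 ± 0.29, adjusted p = 0.58). The neutrophil sums given above were high in the CD45+ libraries of tumor-bearing and neonatal mice and in MDSC. Anemia CD45+ libraries, with neutrophil sums of 495 to 2790, held Mcl1 at 47.3 to 89.2. The part of neutrophil content in the Mcl1 difference was not tested.

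The balance of the survival genes was also read within each library as log2 of Mcl1 over Bcl2l1, which does not change when a library is rescaled. A ratio of 0 does not mean equal numbers of molecules, and only the change between groups is read. It was -3.02, -2.67 and -2.70 in tumor CD45- libraries, -3.10, -2.81 and -1.84 in anemia CD45- and -2.32, -2.89 and -3.49 in neonatal CD45- libraries. In CD45+ libraries it was 1.92, 1.59 and 2.13 in tumor-bearing mice, 0.29, 0.86 and 3.99 in anemia and 1.58, 1.03 and 3.04 in neonates. The 2 fractions did not overlap in any status. MDSC, at 3.17, 3.61 and 4.0, lay above the tumor CD45+ libraries and above all CD45+ libraries except library 3 of anemia.

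**Figure D3:**
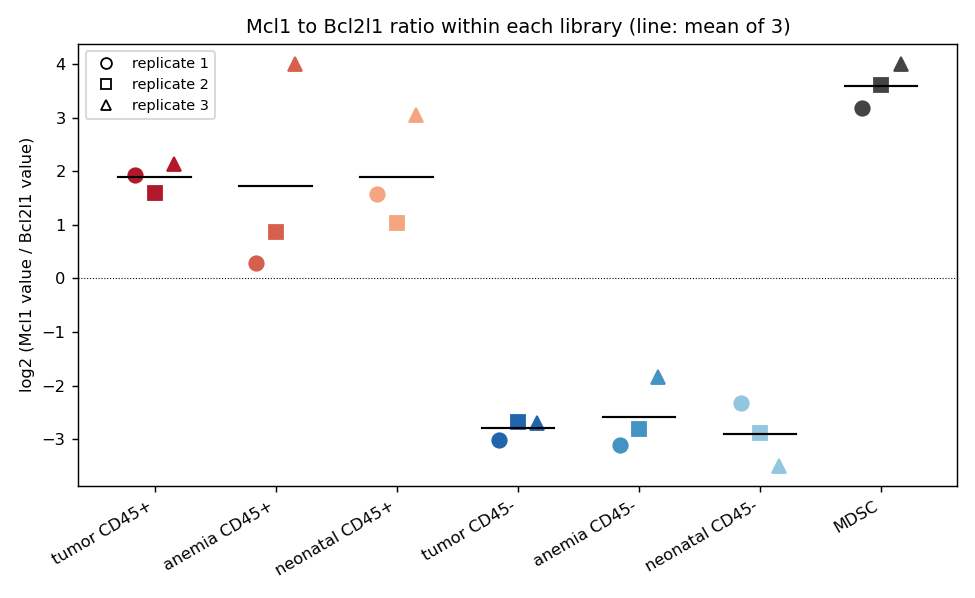
Log2 of the Mcl1 level over the Bcl2l1 level (vertical axis) in each library by group (horizontal axis), with a line at the mean of 3 libraries. The dotted line marks 0. All 9 CD45- libraries lie at -1.84 or below, the 9 CD45+ libraries between 0.29 and 3.99, and the 3 MDSC libraries between 3.17 and 4.0.

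Bcl2, the founding member of the family and a survival protein of lymphocytes, was near the bottom of the scale everywhere. Its highest level was 1.27, in library 1 of neonatal CD45+ cells, with 0.856 and 0.181 in the other two. Tumor CD45+ libraries had 0.451, 0.231 and 0.268 and MDSC had 0.731, 0.542 and 0.233. In anemia CD45+ cells 1 library had 0.598 and the other two were listed at 0. No CD45- library exceeded 0.227. Bcl2 did not reach 1 in 3 libraries and so was not tested among the 9 members. With the filter on low values removed it was called in neonates (log2 difference 0.64, limma adjusted p = 0.012) and in MDSC against tumor CD45- cells (0.52, adjusted p = 0.0071), and not in tumor-bearing mice (0.34, adjusted p = 0.15) or in anemia (0.08, adjusted p = 0.77).

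The effectors Bax and Bak1 form the pore itself. Bax had 20.5, 18.2 and 16.7 in tumor CD45+ libraries, 19.5, 19.6 and 22.6 in anemia CD45+ and 20.9, 18.4 and 18.3 in neonatal CD45+ libraries. In CD45- libraries it had 8.77, 9.13 and 9.80, then 7.63, 9.88 and 16.8, and then 9.17, 12.1 and 6.69 in the same order of status. The fractions did not overlap within any status, and the highest CD45- level, 16.8 in library 3 of anemia, lay beside the lowest CD45+ level, 16.7.

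The log2 difference of Bax was 0.93 ± 0.26 (SE), 0.86 ± 0.26 and 1.00 ± 0.26 in tumor-bearing mice, anemia and neonates (limma adjusted p = 0.0048, 0.0082 and 0.0030). Relative to the median of all genes only 0.18, 0.18 and 0.25 remained. Under median-ratio scaling the differences were 0.01, 0.01 and 0.11, and none of the 3 passed.

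Bak1 had 35.6, 32.0 and 14.2 in tumor CD45+ libraries against 6.87, 4.36 and 8.74 in tumor CD45- libraries, which did not overlap. In neonates it had 19.2, 24.5 and 10.1 against 5.34, 12.4 and 5.29, and in anemia 14.3, 15.0 and 7.03 against 5.84, 7.07 and 12.3, with overlap in both. Its log2 difference was 1.83 ± 0.43 (SE) in tumor-bearing mice (limma adjusted p = 0.0015), 0.47 ± 0.43 in anemia (adjusted p = 0.36) and 1.14 ± 0.43 in neonates (adjusted p = 0.030). The tumor call was lost under median-ratio scaling (0.93, adjusted p = 0.069), and the neonatal call in 7 of 14 alternatives. Without the libraries numbered 3, anemia was called too (1.08, adjusted p = 0.012). Exons of Bak1 overlap those of Ggnbp1 on the other strand, and the counting is not stated to use strand. Reads of the pair cannot be told apart, though Ggnbp1 itself had no level above 1.24.

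Among the BH3-only members, Bcl2l11 encodes BIM, an activator of the effectors that is induced when growth factor is withdrawn. It had 17.4, 24.4 and 21.6 in tumor CD45+ libraries, 18, 20.8 and 45.5 in anemia CD45+ and 19.7, 16.2 and 26.0 in neonatal CD45+ libraries. The CD45- libraries had 4.92, 3.68 and 4.89, then 5.39, 6.44 and 7.24, and then 5.02, 2.79 and 4.27. MDSC had 13.9, 18.3 and 22.8. No CD45- library came near any library of CD45+ cells or MDSC.

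The log2 difference of Bcl2l11 was 2.01 ± 0.31 (SE), 1.87 ± 0.31 and 2.11 ± 0.31 in tumor-bearing mice, anemia and neonates (limma adjusted p = 2.8e-05, 5.9e-05 and 1.9e-05), or 1.26, 1.19 and 1.36 relative to the median of all genes. Within libraries, log2 of Bcl2l11 over Bcl2l1, a gene for a death signal over one for its inhibitor, was -5.17 to -3.06 in the 9 CD45- libraries, -1.10 to 3.02 in the 9 CD45+ libraries and 0.74 to 1.89 in MDSC.

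Pmaip1 encodes NOXA, which binds MCL1 in preference to the other survival proteins. It was under 1 in all 9 CD45- libraries, at 0.249, 0.139 and 0.455 in tumor-bearing mice, 0.450, 0.655 and 0.676 in anemia and 0.735, 0.823 and 0.369 in neonates. The CD45+ libraries had 2.68, 7.03 and 10.6, then 6.44, 6.28 and 21.4, and then 4.28, 7.95 and 14.9, and MDSC had 4.13, 5.12 and 6.57. The fractions did not overlap. The log2 difference was 2.46 ± 0.46 (SE), 2.75 ± 0.46 and 2.48 ± 0.46 in tumor-bearing mice, anemia and neonates (limma adjusted p = 0.00020, 7.2e-05 and 0.00019), or 1.71, 2.07 and 1.73 relative to the median of all genes. Pmaip1 passed the filter on low values through CD45+ libraries alone, so a tested Pmaip1 had to be higher there, and its call lends no weight to the counts of members.

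Bid links death receptors to mitochondria once caspase-8 has cleaved its product. It had 14.1, 15.5 and 13.9 in tumor CD45+ libraries against 1.38, 1.83 and 4.51 in tumor CD45- libraries, 12.7, 11.2 and 13.0 against 2.78, 2.03 and 9.20 in anemia, and 8.56, 4.31 and 14.9 against 1.14, 0.928 and 3.33 in neonates. The fractions did not overlap within a status, but they did across statuses. The log2 difference was 2.21 ± 0.46 (SE) in tumor-bearing mice (limma adjusted p = 0.00055), 1.45 ± 0.46 in anemia (adjusted p = 0.013) and 1.83 ± 0.46 in neonates (adjusted p = 0.0026). The anemia call was lost in 4 of 14 alternatives, among them without library 1 (adjusted p = 0.055) or library 2 (adjusted p = 0.075) of the CD45- cells. The neonatal call was lost under quantile normalization (adjusted p = 0.095). Bid exons overlap those of Bcl2l13 on the other strand, and reads of the pair cannot be told apart.

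Bad, whose product is kept inactive by growth factor kinases, had 6.68, 10.9 and 3.27 in tumor CD45+ libraries against 1.52, 1.32 and 1.79 in CD45- libraries. It had 4.43, 2.50 and 2.85 against 0.716, 2.45 and 3.91 in anemia, which overlapped, and 7.28, 4.48 and 5.38 against 3.61, 2.71 and 1.34 in neonates. The log2 difference was 1.53 ± 0.40 (SE) in tumor-bearing mice (limma adjusted p = 0.0031), 0.45 ± 0.40 in anemia (adjusted p = 0.35) and 0.95 ± 0.40 in neonates (adjusted p = 0.047). The tumor call was lost under median-ratio scaling and quantile normalization. The neonatal call was lost in 11 of 14 alternatives and turned to -0.14 under quantile normalization. Exons of Bad overlap those of Gpr137 on the other strand. Gpr137 had 2.27 to 3.79 in CD45+ and 0.132 to 0.943 in CD45- libraries, the same direction as Bad, and its part in the Bad values was not tested.

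Bbc3, the gene of PUMA, a potent killer that p53 and growth factor loss induce, was the 1 member called between statuses. It had 12.9, 10.05 and 6.43 in tumor CD45- libraries and 19.8, 11.9 and 6.91 in neonatal CD45- libraries, but 3.83, 4.25 and 2.10 in anemia CD45- libraries. The anemia libraries lay below both other sets without overlap. In CD45+ libraries it had 4.16, 3.34 and 2.15 in tumor-bearing mice, 6.43, 3.53 and 4.12 in anemia and 3.83, 5.02 and 2.20 in neonates, all overlapping. MDSC had 1.23, 2.35 and 1.06.

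The log2 difference of Bbc3 between CD45+ and CD45- cells was -1.34 ± 0.37 (SE) in tumor-bearing mice (limma adjusted p = 0.0048) and -1.5 ± 0.37 in neonates (adjusted p = 0.0021), whereas in anemia it was 0.38 ± 0.37 (adjusted p = 0.40). Relative to the median of all genes it was -2.09, -2.25 and, in anemia, -0.30. The tumor and neonatal calls held in all 14 alternatives each, and the anemia value was not called in any, with estimates from -0.75 to 0.53. Within libraries, log2 of Bbc3 over Pmaip1, the pair of death genes that p53 is known to induce, was 1.64 to 6.17 in CD45- libraries, -2.76 to 0.64 in CD45+ libraries and -2.64 to -1.12 in MDSC. Pmaip1 was at 0.139 to 0.823 in the CD45- libraries, so the size of the ratio there rests on values near the bottom of the scale.

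**Figure D4:**
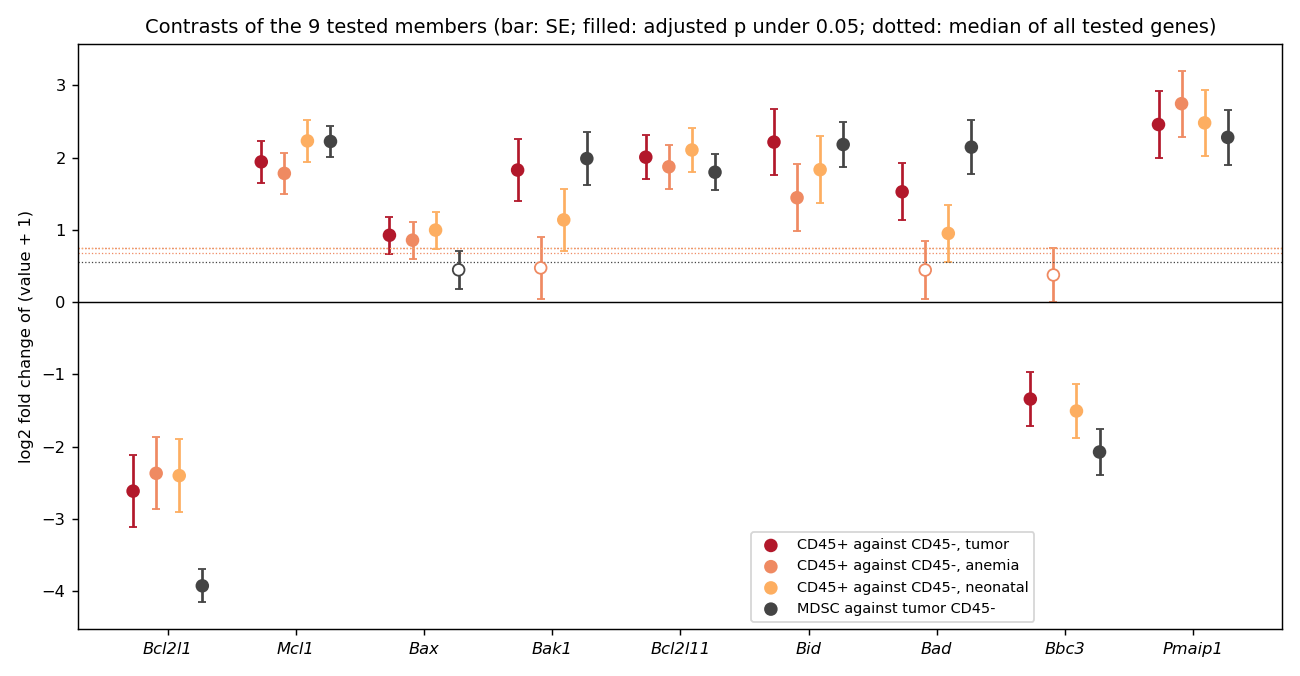
Log2 difference (vertical axis) of the 9 tested members (horizontal axis), for CD45+ over CD45- in each status and MDSC over tumor CD45-. Bars are 1 SE, filled points have a limma adjusted p under 0.05 and dotted lines are the medians of all genes tested. Bcl2l1 lies far below 0 in all comparisons of CD45+ or MDSC with CD45- cells. In the CD45 comparisons Bbc3 lies below 0 in tumor-bearing and neonatal mice but at 0.38 in anemia.

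The dependence of Bbc3 on status was tested directly. In CD45- cells anemia against neonates gave a log2 difference of -1.59 ± 0.37 (SE, limma adjusted p = 0.021), the 1 call among the 9 members, where 4.33% of all genes were called. The test of whether the CD45 difference itself differed gave 1.88 ± 0.52 for anemia minus neonates (adjusted p = 0.037), again the 1 call among the 9 members, where 6.92% of all genes were called. Tumor minus anemia gave -1.72 ± 0.52 (adjusted p = 0.10), and was called in 2 of 20 alternatives (lowest adjusted p = 0.018). In that test 0 members were called by limma, 2 had an unadjusted p under 0.05 (Bbc3 and Bak1), and 2.19% of all genes were called. These results were near the threshold. The CD45- difference lost its call in 5 of 14 alternatives, 4 of them the loss of 1 library (library 1 or 3 of anemia, library 1 or 2 of neonates, adjusted p from 0.052 to 0.12), and the anemia minus neonatal test in 11 of 20, with a highest adjusted p of 0.11. The anemia and neonatal libraries of CD45- cells also differed in other marker genes: hepatocyte genes summed to 0.0389 to 0.265 in anemia and to 91.1 to 589 in neonates, and neutrophil genes to 9.11 to 14.3 and 122 to 214. Their part in the Bbc3 difference was not tested. Of the 11 tested genes of a p53 list, limma called 0 in the anemia against neonatal comparison of CD45- cells, where 4.33% of all genes were called. The part of p53 in the Bbc3 difference was not tested.

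No other member was called between statuses. Bad did not overlap between neonatal and anemia CD45+ libraries (4.48 to 7.28 against 2.50 to 4.43). Its log2 difference of anemia against neonates was -0.66 (limma adjusted p = 0.27). In CD45- cells Bcl2l11 in anemia (5.39 to 7.24) did not overlap tumor libraries (3.68 to 4.92, tumor against anemia -0.42, adjusted p = 0.89). Nor did it overlap neonatal libraries there (2.79 to 5.02, anemia against neonates 0.57, adjusted p = 0.37). Bid was apart between tumor and anemia CD45+ libraries (13.9 to 15.5 against 11.2 to 13.0, 0.22, adjusted p = 0.85). Bcl2l1 was apart between tumor and neonatal CD45- libraries (121 to 126 against 76.2 to 119.7, 0.34, adjusted p = 0.95). The share of all genes without such overlap was not computed. Among CD45+ cells limma called 0 of 9 members in tumor against anemia, where 10.7% of all genes were called, and 1 member, Bak1, had an unadjusted p under 0.05 (log2 difference 1.07). It called 0 of 9 in tumor against neonates (6.61% of all genes called, 0 members with an unadjusted p under 0.05) and 0 of 9 in anemia against neonates (20.3%, 0 members). Among CD45- cells it called 0 of 9 in tumor against anemia (0.152% of all genes), with Bbc3 the 1 member with an unadjusted p under 0.05 (1.29, adjusted p = 0.25), and 0 of 9 in tumor against neonates (2.54%, 0 members). The interaction of tumor minus neonates called 0 of 9 as well (1.08%, 0 members).

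Some of these depended on single libraries. Without library 3 of tumor CD45+ cells, Bak1 (1.47, limma adjusted p = 0.027) and Bad (1.19, adjusted p = 0.043) were called higher in tumor than in anemia CD45+ cells. With all 7 libraries numbered 3 left out, a choice made after the data were seen, both were called again, Bid was called higher in tumor than in neonatal CD45+ cells (1.15, adjusted p = 0.015), and Bcl2l1 (0.70, adjusted p = 0.043) and Bid (0.86, adjusted p = 0.029) were called higher in anemia than in neonatal CD45+ cells. In the same setting Bbc3 was called in tumor against anemia CD45- cells (1.30, adjusted p = 0.034) and in the interaction of tumor minus anemia (-1.60, adjusted p = 0.028).

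MDSC of tumor-bearing mice were set beside the Ter119+CD71+ cells of the same mice in a fit of those 9 libraries. Against tumor CD45+ cells 1 of 9 members was called, none of them higher (0.995% of all genes were called higher) and Bcl2l1 lower (5.42% were called lower and 6.42% in all). Bcl2l1 differed by -1.31 ± 0.23 (SE, limma adjusted p = 0.0080), or -1.15 relative to the median of all genes, and lost the call in a single fit of all 21 libraries (adjusted p = 0.088). Bbc3 had an unadjusted p under 0.05 (-0.73, adjusted p = 0.21). The erythroid sum was also lower in these MDSC, 52.7 to 118 against 564 to 1179, and its part in the Bcl2l1 difference was not tested. Mcl1 differed by 0.28 ± 0.21 (adjusted p = 0.47) and Bcl2l11 by -0.21 ± 0.25 (adjusted p = 0.67).

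Against tumor CD45- cells, MDSC had 6 of 9 members higher and 2 lower, where 42.1% of all genes were higher and 14.3% lower (56.4% called in all). The median of the members was 1.99 and that of all genes 0.56. Bcl2l1 was lower by far (-3.92 ± 0.23, SE, limma adjusted p = 1.5e-07), as was Bbc3 (-2.07 ± 0.32, adjusted p = 0.00022). Mcl1 (2.22 ± 0.21), Bak1 (1.99 ± 0.37), Bcl2l11 (1.80 ± 0.25), Bid (2.18 ± 0.32), Bad (2.14 ± 0.37) and Pmaip1 (2.28 ± 0.38) were higher. In this fit Pmaip1 passed the filter on low values through MDSC and tumor CD45+ libraries alone. Its call therefore lends no weight to the count of members higher in MDSC than in tumor CD45- cells. Bax was not called (0.45 ± 0.26, adjusted p = 0.17). Bad had its highest group mean here, from 12.5, 12.5 and 6.78, as did Bak1, from 40.1, 25.7 and 22.3, with Bax at 18, 14.1 and 8.45. Log2 of Bax over Bak1 was -1.40 to -0.86 in MDSC and -0.81 to 1.68 in all other libraries, without overlap.

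Because the choice of scaling shifts every gene, the members were sorted by what survived it. Bcl2l1, Mcl1 and Bcl2l11 were called in all 3 CD45 comparisons and in all 14 alternatives of each. So was Pmaip1, whose call the filter on low values favoured, as given above. Bid and Bbc3 kept their calls in tumor-bearing mice in all 14. Bax lost its call in all 3 statuses under median-ratio scaling and quantile normalization, and the calls of Bak1 and Bad depended on the scaling as given above. The share of called genes that were higher in CD45+ cells fell from 82.2% to 54.9% and 46.1% in tumor-bearing mice, from 80.7% to 53.2% and 47% in anemia and from 82.8% to 54.5% and 48.7% in neonates under those 2 scalings. For MDSC against tumor CD45- cells it fell from 74.6% to 54.2% and 46.3%, and against tumor CD45+ cells it went from 15.5% to 47.4% and 36.6%.

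**Figure D5:**
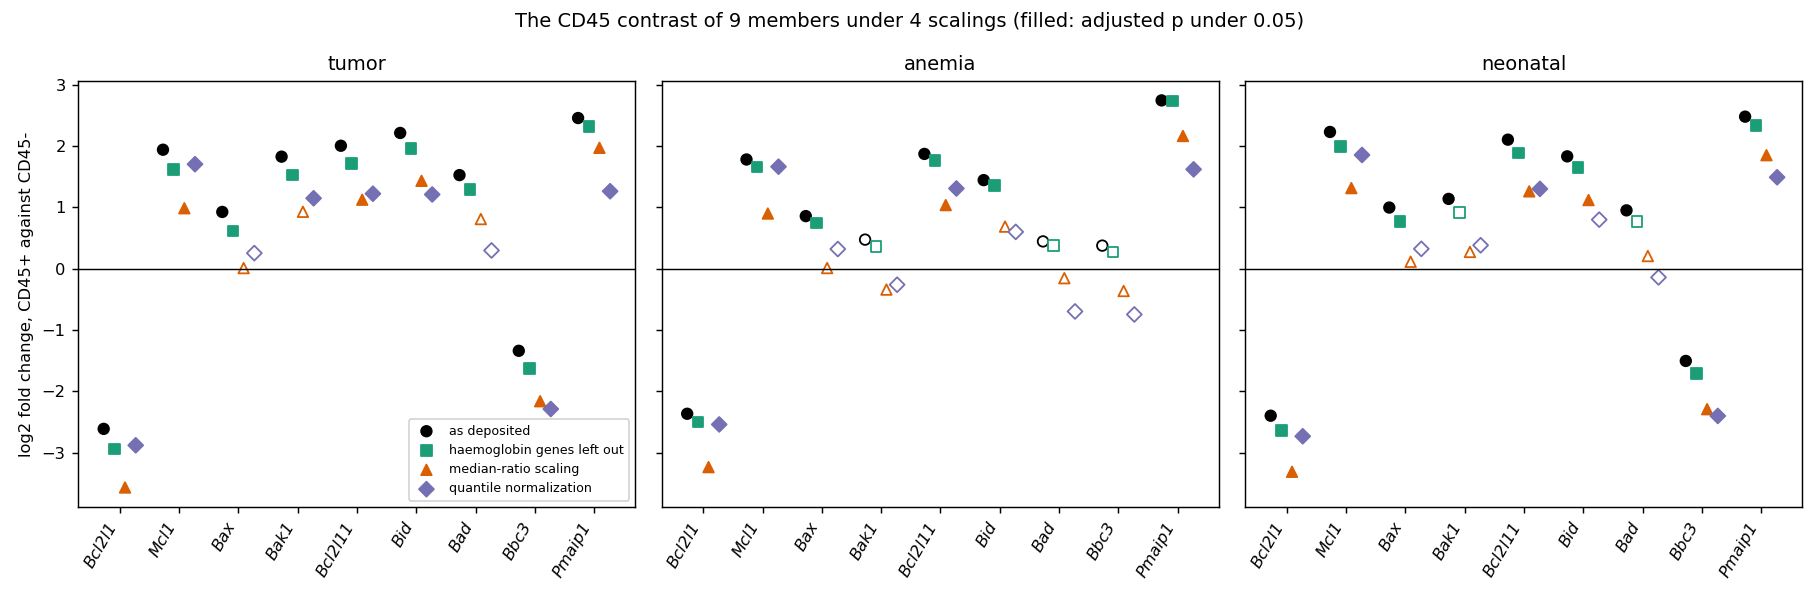
Log2 difference of CD45+ over CD45- cells (vertical axis) of the 9 tested members in each status under 4 scalings: as deposited, median-ratio, quantile, and with 10 haemoglobin genes left out. Bcl2l1 stays below 0 and Mcl1, Bcl2l11 and Pmaip1 above 0 under all 4, whereas Bad in neonates crosses to -0.14 under quantile normalization.

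Of the other BCL2 family genes, 13 were in the table. Bnip3l, a BH3-like gene whose product NIX marks mitochondria for removal as red cells mature, fell in CD45+ cells by 2.18 in tumor-bearing mice, 1.83 in anemia and 2.53 in neonates on the log2 scale (SE 0.31, limma adjusted p = 1.2e-05, 7.7e-05 and 2.9e-06). Its mean levels were 243, 208 and 294 in CD45- cells, 52.2, 59.7 and 50 in CD45+ cells and 22.4 in MDSC, the same order of cell fractions as Bcl2l1, and it was lower in MDSC than in tumor CD45+ cells (-1.21, adjusted p = 0.016). In the list of effector-like and BH3-only genes, 2 of 5 tested were higher and 3 lower in tumor-bearing mice and in neonates, and 2 higher and 2 lower in anemia. The medians were -0.97, -0.57 and -0.88 in tumor-bearing mice, anemia and neonates. Of all genes 50.2%, 47.4% and 49.6% were higher and 10.9%, 11.3% and 10.3% lower. Becn1, an autophagy gene with a BH3 domain, was lower in all 3 statuses (-0.97, -0.57 and -0.88), and Bmf, a BH3-only gene that responds to loss of attachment, was higher (1.80, 2.01 and 1.55). Bnip3 was higher (1.93, 1.23 and 0.86), although under quantile normalization none of the 5 genes was called higher and Bnip3 turned to -0.29 in neonates. Bcl2l13 was lower in tumor-bearing mice (-1.35) and neonates (-1.81) and not called in anemia (-0.74, adjusted p = 0.27). The tumor call of Bcl2l13 was lost in 6 of 14 alternatives (highest adjusted p = 0.22), and the anemia call of Becn1 in 4 of 14 (highest adjusted p = 0.12).

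In CD45+ cells of tumor-bearing mice, anemia and neonates 50.2%, 47.4% and 49.6% of all genes were higher. Among the other anti-apoptotic genes 2, 2 and 3 of 4 tested were higher in the same order, with medians of 1.09, 1.85 and 2.00. Those called were copies of Bcl2a1, an NF-κB target of leukocytes: Bcl2a1d (1.55, 3.15 and 2.38), Bcl2a1a (1.55, 2.98 and 1.62) and, in neonates, Bcl2a1b (2.78). These copies are nearly identical, so how reads were shared among them is uncertain. No tumor call among them held under quantile normalization, where 0 of 4 genes were called. Bcl2l2, the gene of BCL-W, was not called in any status (0.58, 0.73 and 0.62). Bok, Bik, Bcl2l10 and Bcl2l14 were too low to be tested.

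Downstream of the pore, the 15 genes of the mitochondrial death pathway showed few calls. In CD45+ cells 5 were higher in tumor-bearing mice, 2 were higher and 1 lower in anemia, and 4 were higher and 1 lower in neonates. Of all genes 50.2%, 47.4% and 49.6% were higher and 10.9%, 11.3% and 10.3% lower. The medians of the list were 0.65, 0.22 and 0.57 against 0.75, 0.68 and 0.75 for all genes. Apaf1, the scaffold of the apoptosome, was higher in tumor-bearing mice (1.19) and neonates (1.48) and not called in anemia (0.14), and Vdac2, which tethers BAK at the outer membrane, was higher in the same 2 (1.63 and 1.75) and not called in anemia (0.36). The interaction of anemia minus neonates passed for Apaf1 (-1.33, limma adjusted p = 0.049) and not for Vdac2 (-1.39, adjusted p = 0.13). Under median-ratio scaling and quantile normalization the value of Apaf1 in anemia was -0.68 and -0.66. Htra2, a protease released through the pore, was lower in anemia (-0.87) and neonates (-0.92) and not called in tumor-bearing mice (-0.45). Casp6, an executioner caspase, was higher in tumor-bearing mice (1.64) and not called in the others (0.55 and 0.57), but the interactions of tumor minus anemia (1.09, adjusted p = 0.32) and tumor minus neonates (1.07, adjusted p = 0.53) did not pass either. Dffa and Dffb, the inhibitor and nuclease that cut DNA in dying cells, were at 1.13 and 1.16 in tumor-bearing mice and both turned to -0.14 under quantile normalization, and the median of the list was then -0.14, -0.52 and -0.35 in the 3 statuses.

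Of the 12 genes of the death receptor pathway, 11 were higher in CD45+ cells of tumor-bearing mice, 11 in anemia and 9 in neonates, and 0 were lower, where 50.2%, 47.4% and 49.6% of all genes were higher. Their medians were 1.83, 1.94 and 1.47, against 0.75, 0.68 and 0.75 for all genes. The receptors led: Tnfrsf1a (4.64, 3.25 and 3.36), Tnfrsf1b (3.24, 3.38 and 2.68) and Fas (2.11, 2.95 and 1.24), together with Cflar, the inhibitor of caspase-8 (2.72, 2.84 and 2.30). Under quantile normalization 7, 8 and 6 were higher and 1, 0 and 0 lower. Of 8 inhibitors of apoptosis, 5, 6 and 6 were higher and 1 lower in each status, against the same shares of all genes, and their medians were 0.93, 1.16 and 1.13. With median-ratio scaling 3 of 7 tested were higher in each status, and under quantile normalization 5, 3 and 5 of 8. Birc3 rose most of the named ones, by 5.24, 5.66 and 4.42, and the lower gene was Birc5, the gene of survivin, which is made in dividing cells (-2.07, -2.47 and -1.82). Naip2 (3.52, 1.71 and 2.61) and Naip5 (2.87, 2.37 and 2.87), sensors of bacterial proteins, were higher too.

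Of 11 tested genes of p53 and its targets, 4 were higher and 2 lower in tumor-bearing mice, 5 and 1 in anemia, and 5 and 2 in neonates. In the same order 50.2%, 47.4% and 49.6% of all genes were higher and 10.9%, 11.3% and 10.3% lower. Mdm2, the p53 ligase, was higher (0.87, 0.98 and 1.07) but followed the median of all genes, and median-ratio scaling turned it to -0.080 in tumor-bearing mice. Cdkn1a, the cell cycle inhibitor p21, was higher in anemia (1.37) and neonates (1.69) and not called in tumor-bearing mice (-0.52). Trp53inp1 was higher in anemia (1.75) and not called in the others (-0.21 and -0.38). Aen was higher in tumor-bearing mice (0.90) and neonates (1.05), but turned to -0.24 and -0.10 under quantile normalization, and was not called in anemia (0.57). Gtse1, a gene of dividing cells, was lower in all 3 (-1.19, -1.98 and -1.05), as was Sesn2 in tumor-bearing mice (-1.10) and neonates (-0.87). Of 20 genes that act upstream of the family, 7 were higher and 6 lower in tumor-bearing mice, 8 and 5 in anemia, and 7 and 5 in neonates. These counts stand against the same shares of all genes. The 3 with the smallest adjusted p were the same in each status: Stat3, a transcriptional activator of Mcl1 (3.94, 3.80 and 3.12), Foxo1, an activator of Bcl2l11 (2.81, 3.66 and 1.89), and the repressor Bcl6 (2.79, 3.17 and 2.24). All 9 of these values kept their calls in all 14 alternatives each. Choice by adjusted p named only genes of this list that were higher, and none of those that were lower. The part of the named genes in the differences of the members was not tested.

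The genes whose profile over the 7 group means was nearest to each member were ranked by the root mean square difference of centred log2(value + 1) means. Of 11289 other genes, those with a symbol of the Rik, Gm or LOC kind or starting with a digit were left out of the ranking. For Bcl2l1 they were Tmem56 (0.164) and Mkrn1 (0.165), for Mcl1 Por (0.0745) and Kif3b (0.123), and for Bcl2l11 Psen2 (0.10) and Mcts1 (0.102). Bax was nearest to Srsf7 (0.0315) and Aars2 (0.0504), whose differences were small because Bax itself varied little, over a range of 1.09. Bbc3 was nearest to Wdr45 (0.160) and Siah1a (0.209), Bak1 to Dctn1 (0.0841) and Rsph3b (0.0931), and Bad to Nek6 (0.110) and Rsph3b (0.115). Bid was nearest to Spn (0.0899) and D17H6S53E (0.127), and Pmaip1 to Polm (0.101) and Parp6 (0.103). All of these likenesses rest on 7 group means that share the same libraries and are descriptions.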

How the data were processed

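Per the labels' protocols, total RNA of the 21 samples went into TruSeq libraries. Their extraction text speaks of retinas, although the tissue label is spleen. The submitters' processing notes name Bowtie 0.12.2 and the mouse build mm8. The authors deposited 1 log2 expression value per gene and library in a table of 14273 lines with 8 repeated symbols, of which the one with the highest mean was kept. The scale behind the log2, the counting tool, the annotation and the read depth are not given in the sources used here, so no counting error could be computed. Blank cells (23668, or 7.9%) were taken as 0.

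Values were taken out of the log, and log2(value + 1) was fitted with group means by limma 3.58.1 under R 4.3.3 with statmod 1.5.0 (trend and robust options). One fit held the 18 Ter119+CD71+ libraries and another the 9 libraries of tumor-bearing mice. A gene entered a fit if it reached 1 in 3 or more of its libraries, which left 11192 and 10251 genes. A log2 difference is on this scale, which understates changes of low genes. Tests were two-sided, with Benjamini-Hochberg adjustment over all tested genes of each of 14 comparisons and a threshold of 0.05. Samples were grouped by their titles. The fit was tested on simulated data.

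The members and all gene lists were chosen with earlier results of these data known. Named genes were the members, the other BCL2 family genes, and of each further list the 3 genes with the smallest adjusted p in each CD45 comparison. For each member the 2 genes with the most similar profile of group means, among the symbols kept for that ranking, were named too. The Casp6, Apaf1 and Vdac2 interactions and the antisense partners Ggnbp1 and Gpr137 were named after their values were seen. Alternatives were a pseudocount of 0.25, no filter, median-ratio scaling, quantile normalization, 10 haemoglobin genes left out, a replicate block, 1 fit of all 21 libraries, each library left out in turn and, added after the data were seen, all 7 libraries numbered 3 left out. Marker lists of monocytes, B cells, T and NK cells, mast cells and platelets were also summed. Exon overlaps came from GENCODE vM21.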

Additional observations from a re-analysis of the deposited data

Results flagged for a closer look

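Bbc3 stood out because its CD45 difference was not the same in 2 statuses by a test of the difference itself. The interaction of anemia minus neonates was 1.88 (limma adjusted p = 0.037), from log2 differences of 0.38 in anemia and -1.5 in neonates. All 3 CD45+ libraries lay below all 3 CD45- libraries in neonates, and the libraries overlapped in anemia. The call was lost in 11 of 20 alternatives.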

How the results depend on the processing

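Of 1926 values of single members under an alternative, 1721 kept their sign and call, 141 changed sign without being called in either setting, 50 lost the call, 13 gained it and 1 reversed with a call. Uncalled changes of sign in the CD45 comparisons were those of Bak1, Bad and Bbc3 in anemia, under median-ratio scaling (-0.34, -0.15 and -0.36) and quantile normalization (-0.26, -0.70 and -0.75). The reversal was Bad in neonates (-0.14), under quantile normalization. Other genes that reversed under quantile normalization were Dffa in tumor-bearing mice (-0.14), anemia (-0.21) and neonates (-0.25), Dffb (-0.14) and Aen (-0.24) in tumor-bearing mice, Aen (-0.10) and Bnip3 (-0.29) in neonates and Apaf1 in anemia (-0.66). Under median-ratio scaling Mdm2 in tumor-bearing mice (-0.080) and Apaf1 in anemia (-0.68) reversed.

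Under median-ratio scaling the count of members called for CD45 was 6 in tumor-bearing mice, 4 in anemia and 6 in neonates, and under quantile normalization 7, 4 and 5, against 9, 6 and 9. The other moves of over 1.5 times follow. Under quantile normalization the count was 0 for anemia against neonates in CD45- cells. The interaction of anemia minus neonates had 0 under quantile normalization, 0 under median-ratio scaling and 0 with a pseudocount of 0.25. The single fit of 21 libraries gave 0 for MDSC against tumor CD45+ cells. Without the libraries numbered 3 the count was 2 for tumor against anemia, 1 for tumor against neonates and 2 for anemia against neonates in CD45+ cells, 1 for tumor against anemia in CD45- cells and 1 for the interaction of tumor minus anemia. With 1 library left out at a time it was 9 in each case for CD45 in tumor-bearing mice, 4 to 6 in anemia and 7 to 8 in neonates, 0 to 2 for tumor against anemia in CD45+ cells, 0 to 1 for anemia against neonates in CD45- cells and for the interaction of anemia minus neonates, 1 in each case for MDSC against tumor CD45+ cells and 8 to 9 against CD45- cells, and 0 in the other comparisons. The causes were not tested.

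The labels give no meaning to the replicate numbers, and not every same-number pair of libraries deviated together, so they were not treated as pairs. Deviations from the group means correlated above 0.1 in 35 of 63 same-number pairs (median 0.112, lowest -0.171), against a median of -0.0892 for different numbers. In 12 of 21 libraries the mean correlation with libraries of their own number was higher than that with each other number. The median of same-number pairs was 0.221 for number 3, 0.0773 for number 1 and 0.0793 for number 2. This is a hint from the data that libraries numbered 3 shared a deviation. With the replicate block the interaction of tumor minus anemia called 1 member, Bbc3 (limma adjusted p = 0.018), Bad in neonates lost its call (adjusted p = 0.055), and no other call of a member changed.

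Without the libraries numbered 3, many counts over all genes moved by over 1.5 times. In CD45+ cells they went from 1200 to 3506 for tumor against anemia, from 740 to 2020 for tumor against neonates and from 2277 to 4001 for anemia against neonates. In CD45- cells they went from 17 to 551, from 284 to 1483 and from 485 to 2523 in the same order, in the interactions from 245 to 1821, 121 to 730 and 775 to 1788, and for MDSC against tumor CD45+ cells from 658 to 258. The other moves with all libraries kept follow. Tumor against neonates in CD45+ cells went to 1240 without a filter. Tumor against anemia in CD45- cells went to 35 with median-ratio scaling, 26 without haemoglobin genes and 41 in the single fit. Tumor against neonates in CD45- cells went to 532 with a pseudocount of 0.25, 581 without a filter and 483 with median-ratio scaling. Anemia against neonates in CD45- cells went to 792 without a filter and 798 with median-ratio scaling. Interactions went to 136 with a pseudocount of 0.25 and 383 in the single fit for tumor minus anemia, to 235 without a filter and 182 with median-ratio scaling for tumor minus neonates and to 509 with a pseudocount of 0.25 for anemia minus neonates. MDSC against tumor CD45+ cells went to 391 under quantile normalization and 1109 in the single fit. With single libraries left out, tumor against anemia ran from 546 to 2225 in CD45+ and 0 to 90 in CD45- cells. Tumor against neonates ran from 429 to 1136 and 155 to 288 in the same order. Anemia against neonates ran from 1508 to 2239 and 211 to 627. The interactions ran from 83 to 1184 (tumor minus anemia), 43 to 395 (tumor minus neonates) and 428 to 800 (anemia minus neonates). MDSC against tumor CD45+ cells gave 246 to 416. Depth is not known, so no difference could be set against counting error.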

Other observations

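Marker sums for cell types other than those named above also differed between the groups that hold the BCL2 family values. B cell genes summed to 880 to 1016 in anemia CD45+ libraries, 131 to 615 in tumor CD45+ and 97.5 to 332 in neonatal CD45+ libraries, and to 1.46 to 14.4 in CD45- libraries. T and NK cell genes summed to 265 to 397 in anemia CD45+ libraries, 66.6 to 192 in tumor CD45+ and 33.2 to 93.7 in neonatal CD45+ libraries. Genes of mast cells, basophils and eosinophils were highest in neonatal CD45+ libraries, at 690 to 1332. Monocyte and macrophage genes summed to 732 to 1481 in neonatal CD45+ libraries, and to 1184 in library 3 of tumor CD45+ cells against 259 and 237 in the other two. Megakaryocyte and platelet genes stayed between 2.51 and 130 in all libraries. Bcl2a1a and Bcl2a1d, leukocyte survival genes, had their highest mean levels, 13.0 and 16.4, in anemia CD45+ cells, and Bcl2a1b had its highest, 14.7, in neonatal CD45+ cells.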
